A study of Mus musculus with 12 samples.

Results

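Colorectal tissue labelled tumour, taken 10 weeks after azoxymethane (AOM), was compared with tissue labelled colitis, taken 2 weeks after AOM. Members were chosen by array title: 3 arrays of the 10-week group and 3 of the 2-week group, 6 of the 12 arrays in the series. All mice were male C57BL/6. Both groups had received 1 AOM injection of 10 mg/kg and, 7 days later, 2% dextran sulfate sodium (DSS) in the drinking water for 7 days. In the protocol 14 days of plain water then follow, and there are 3 DSS cycles in all. By these times the 2-week time point falls at the end of the first DSS course, before any plain water, and the 10-week time point after further cycles. The other 6 arrays, from untreated mice at 0 weeks and from mice 1 week after AOM, entered the fit for the estimate of spread and are used to place the levels. Whether the arrays stand for single mice or pools, and which stretch of the colorectum was sampled, is not in the labels.

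AOM is a colon carcinogen that alkylates DNA, and DSS damages the colonic epithelium and brings on colitis. Repeated rounds of injury and repair after AOM give epithelial tumours in the mouse colon, often with active Wnt and β-catenin signalling. Tissue at the end of a first DSS course is known for ulceration, loss of crypts and infiltrating leukocytes, whereas an established tumour also holds stroma, vessels and immune cells beside the tumour epithelium. Whole tissue was measured, so fewer cells of a type and less RNA per cell cannot be told apart.

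The arrays were 1-colour (Cy3) Agilent arrays with 60-base probes. A level is given below as the deposited log2 value, in which a difference of 1 is 2-fold, and beside it as the processed signal, the background-subtracted intensity of the spot. Of 145548 non-control probes, 57898 were well above background, by the scanner software's own flag, on at least 3 of the 6 arrays, and these were tested. The files give no gene name for these probes, and each name field repeats the probe ID. Between 48457 and 52418 probes were well above background on the 2-week arrays and between 59321 and 64620 on the 10-week arrays. The 10-week arrays were also brighter, with a median processed signal of 10.1 to 11.2 against 4.97 to 5.96 on the 2-week arrays. All 2-week arrays lay on 1 slide and all 10-week arrays on another, scanned on a different day, so slide, scan day and time point cannot be told apart. The 0-week and 1-week arrays were scanned on the same day as the 2-week arrays. Their median processed signal was 5.41 to 6.69.

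The largest differences rested on single probes, shown here because they are the widest changes among probes detected in both groups. These are the 2 probes that rose most and the 2 that fell most among 7655 that met the rule (an adjusted p below 0.05 in both sources, no overlap between groups in either, and well above background on at least 2 of 3 arrays in both groups). The sequences are as the files list them, and no letters are in capitals.
A_55_P2068510: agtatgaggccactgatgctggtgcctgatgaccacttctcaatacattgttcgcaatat
A_51_P484526: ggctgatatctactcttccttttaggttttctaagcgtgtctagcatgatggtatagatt
A_51_P319180: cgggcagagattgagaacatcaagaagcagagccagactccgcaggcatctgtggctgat
CUST_OEV3_042683: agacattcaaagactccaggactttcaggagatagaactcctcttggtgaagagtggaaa

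Probe A_55_P2068510 read 4.39, 4.32 and 3.32 on the 2-week arrays and 11.8, 13.6 and 13.3 on the 10-week arrays. As processed signal, it went from 14.5, 15.5 and 6.65 to 3372, 12745 and 9085. The groups lay far apart, and the 0-week and 1-week means, 4.44 and 3.82, stood with the 2-week mean of 4.01. The change was 8.91 ± 0.42 (SE, log2, n = 3 arrays per group), or 481-fold, with an adjusted p of 2.1e-06 by limma. Only 2 of the 3 2-week arrays were well above background for it, so the fold depends on the background, and the change was 6.75 (log2) with normexp.

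Probe A_51_P484526 read 3.88, 4.50 and 4.66 at 2 weeks and 11.4, 12.3 and 11.4 at 10 weeks. Its means of 3.92 at 0 weeks and 4.05 at 1 week were again close to the 2-week level. It rose by 7.36 ± 0.29 (SE, log2, n = 3 arrays per group), or 164-fold, with an adjusted p of 8.6e-07 by limma. Here too 2 of the 3 2-week arrays were well above background, and the fold was 40.4 with normexp. Both probes were thus near the lower end of detection on every array before 10 weeks and among bright probes on every 10-week array.

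Probe A_51_P319180 had the largest fall by that rule, and it was a fall from a peak. It read 7.36, 9.27 and 6.51 at 2 weeks and 4.34, 4.38 and 3.73 at 10 weeks. It was well above background on none of the 0-week and 1-week arrays, where the means were 2.16 and 1.59, and on all 3 arrays of both later time points. The fall was -3.56 ± 0.58 (SE, log2, n = 3 arrays per group), or 11.8-fold, with an adjusted p of 0.0025 by limma, and the 2-week arrays differed more among themselves (SD 1.41) than the 10-week arrays did (SD 0.37). The fall was 6.89-fold without the second 2-week array, 17.9-fold without the third, and 3.76-fold with normexp.

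Probe CUST_OEV3_042683 showed the other kind of fall, a loss at 10 weeks alone. It read 6.54, 7.10 and 7.13 at 2 weeks, near its means of 7.20 at 0 weeks and 6.76 at 1 week. At 10 weeks it read 3.68, 1.40 and 5.07, and 2 of these 3 arrays were well above background. The 10-week arrays were all lower but scattered widely (SD 1.85). The change was -3.54 ± 0.69 (SE, log2, n = 3 arrays per group), or 11.6-fold, with an adjusted p of 0.0056 by limma. It was 5.86-fold without the second 10-week array, 20.9-fold without the third, and 2.39-fold with normexp, the undetected array being set by its background.

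**Figure D1:**
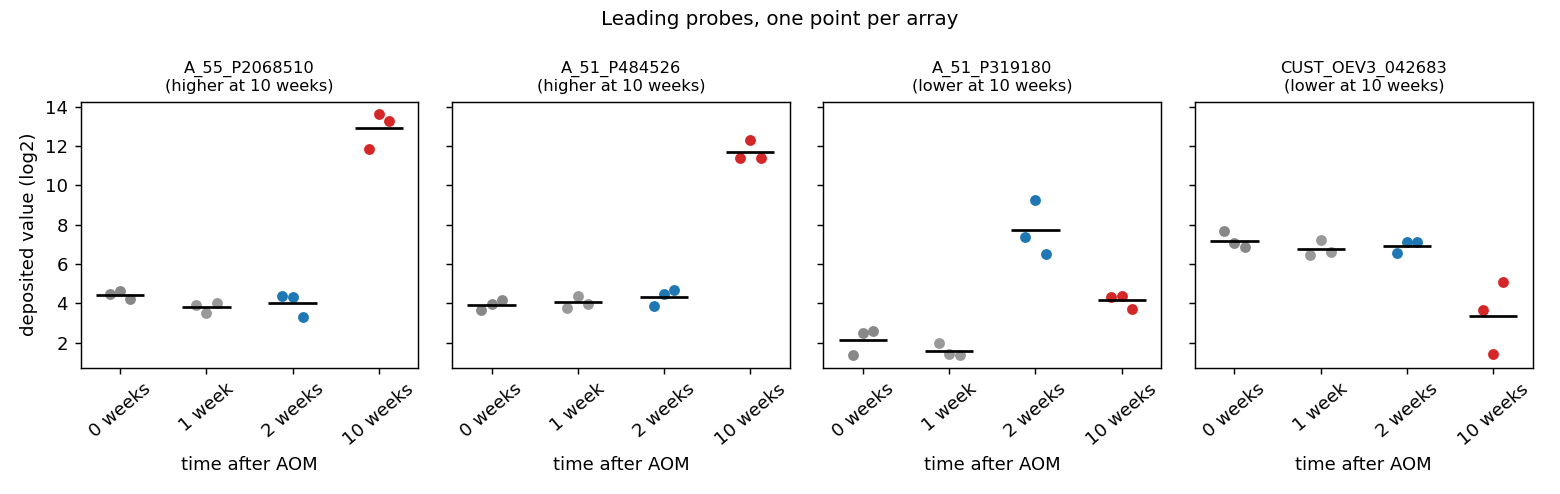
Deposited log2 value of each leading probe on every array (points) with the group mean (line), by time after AOM; the 2-week arrays are blue and the 10-week arrays red. The first 2 probes stay between 3.32 and 4.66 until 2 weeks and reach 11.4 to 13.6 at 10 weeks, the third peaks at 2 weeks, and the fourth drops at 10 weeks alone.

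Across all tested probes, 12979 of 57898 changed between 2 and 10 weeks (22.4%, adjusted p below 0.05 by limma). Of these, 6170 were higher at 10 weeks (10.7% of those tested) and 6809 were lower (11.8%). A change of at least 2-fold was called for 5619 probes (9.7%), 2948 higher and 2671 lower. That split turned to 1297 higher and 1872 lower when only probes detected on all 6 arrays were tested, to 3365 and 4471 with the processed signal scaled on all probes, to 2260 and 2465 without the first 10-week array, and to 2659 and 3044 without the third. With the processed signal scaled on detected probes it was 7919 and 1387. In 25603 probes (44.2%) the 3 arrays of 1 group all lay above the 3 of the other. The correlation across tested probes was 0.974 to 0.978 between 2-week arrays, 0.972 to 0.978 between 10-week arrays and 0.926 to 0.946 between arrays of different groups, probes not being independent replicates. Without the third 2-week array, 6917 probes were called.

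How the wide changes split depended on detection. At least 4-fold, 754 probes were higher and 327 lower, but 546 of those rises were on no 2-week array and 82 of the falls on no 10-week array, so they entered the test through the group where they are high. Among the 49090 tested probes well above background on at least 2 of 3 arrays in both groups, 154 were higher and 176 lower by at least 4-fold, and 1422 and 2184 by at least 2-fold. From 8-fold on there were 53 rises against 16 falls in that set, and from 16-fold on 18 against 0. All 18 and 53 of these rises and 15 of the 16 falls were also called in the processed signal. Of the 100 rises of at least 16-fold among all tested probes, 75 were on no 2-week array, and of the 4 falls, 2 were on no 10-week array. A fold from or into background depends on the value given to the background.

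The split of all calls into higher and lower depended on the scaling. With the processed signal scaled on probes detected on all 12 arrays, 19179 probes were called (33.1%), 14414 of them higher and 4765 lower. With the percentile taken over all probes it was 5828 higher and 13972 lower, and with the raw signal corrected by normexp and quantile normalized it was 6819 and 7426. The median change over all tested probes was 0.01 (log2) in the deposited values, 0.26 and -0.16 under the respective percentile scalings, and 0.00 under normexp, so each list below is read against that shift. No probe was called in opposite directions by the deposited values and the processed signal on detected probes, and 9954 (17.2%) were called the same way, 5953 higher (10.3%) and 4001 lower (6.91%). Under all 4 scalings, 3495 probes were called higher and 3921 lower.

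**Figure D2:**
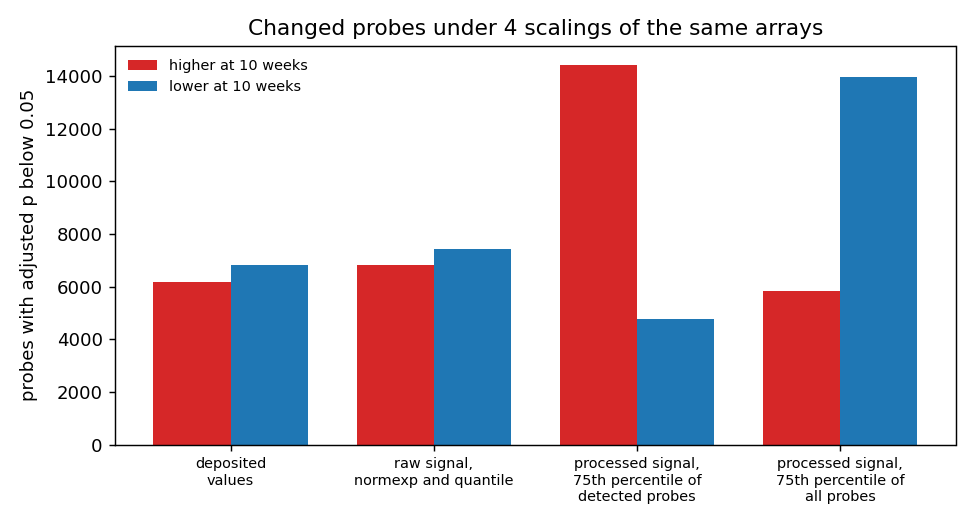
Number of probes with an adjusted p below 0.05 that were higher (red) or lower (blue) at 10 weeks, under each of 4 scalings of the same 12 arrays. The deposited values and normexp give near-equal numbers (6170 and 6809, 6819 and 7426), while the percentile scalings tip the split to rises (14414 of 19179) or to falls (13972 of 19800).

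For most of the strong changes the 0-week mean lay nearer the 2-week than the 10-week mean. Among the 2947 probes called higher in both sources by at least 2-fold, the 0-week mean lay nearer the 2-week than the 10-week mean in 2209. For the 1944 called lower it did so in 1616 (83.1%). The 0-week mean was within 0.5 (log2) of the 2-week mean and not of the 10-week mean for 1503 rises (51.0%) and 1153 falls (59.3%), as it was for A_55_P2068510 and CUST_OEV3_042683. The opposite pattern, a 0-week mean within 0.5 of the 10-week mean alone, was found for 463 rises and 175 falls. The 0-week mean even lay at or beyond the 10-week mean for 117 rises and 132 falls, in which the 2-week level was the one that stood out. These counts are a description, with no test. Of the 2947 rises, 1275 were well above background on no 2-week array, and of the 1944 falls, 122 on no 10-week array. These entered the test only through the group where they are high. For such rises the 2-week value is background, and a 0-week mean near it may be background too. The 0-week arrays shared the scan day of the 2-week arrays and the 10-week arrays did not, so scan day and time point cannot be told apart here either.

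Detection differed in the same direction as signal. On all 3 of the 10-week arrays and none of the 2-week arrays, 3979 probes were well above background, against 137 the other way. Most of the 10-week-only probes were dim: against the lowest detectable level on the 2-week arrays the median bound was at least 1.23-fold, and 747 had no bound above 1. Some were bright, with 450 at a bound of at least 2-fold, 106 at least 4-fold and the highest at least 841-fold, a wider rise than that of any leading probe. Among the 137 probes seen at 2 weeks only, the bound was at least 2-fold in 135, with a median of 3.07-fold, and 84 of them (61.3%) were well above background on all 0-week arrays. All these bounds are in the deposited values, and bounds under the other scalings were not computed. Of the 10-week-only probes, 1919 (48.2%) were on no 0-week array. The higher median signal of the 10-week arrays moved with these counts, and its part in them was not tested.

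The probes came in families, told apart by their IDs: 51691 catalogue probes of the manufacturer, of which 31513 were tested, and 78857 custom probes, of which 23636 were tested. The series names mRNAs and long non-coding RNAs as its subject, but the files do not say which family was made for which. Changes differed between the families. In the deposited values, 2620 catalogue probes rose and 5328 fell (8.31% and 16.9% of those tested), while 3241 custom probes rose and 1351 fell (13.7% and 5.72%). The median change was -0.12 (log2) for catalogue and 0.18 for custom probes. The tested custom probes include 2482 seen on all 10-week and no 2-week arrays, and 27 the other way. For catalogue probes these numbers were 1185 and 106. Such probes entered the test only through the group where they are high, so they add rises by selection, and unequally by family. The gap over probes detected in both groups was not computed.

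Among the tested probes, with that limit, the gap between families was present in each bin of brightness in the deposited values. Tested probes were put into 3 equal bins by their mean level on the 0-week and 1-week arrays, which are outside the comparison. In the dimmest bin the median change was 0.02 for catalogue and 0.27 for custom probes, in the middle bin -0.16 and 0.14, and in the brightest bin -0.13 and 0.11. Custom probes were above catalogue probes by 0.26, 0.30 and 0.24 in the respective bins.

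The size of the gap varied from array to array. Over all tested probes, custom stood above catalogue by 0.30 (log2) in the median, and by 0.43, 0.23 and 0.24 on the respective 10-week arrays against the 2-week mean (SD 0.11, n = 3). The 0-week and 1-week arrays, set against the same 2-week mean, ranged from -0.08 to 0.21, so the 10-week arrays lay above them by a small margin. These earlier arrays shared the scan day of the 2-week arrays. In the middle bin the 10-week and earlier arrays overlapped slightly, with 0.43, 0.22 and 0.24 at 10 weeks against -0.09 to 0.23 on the earlier arrays. In the brightest bin 0.16 and 0.15 lay inside the earlier range of -0.17 to 0.26, and 0.42 lay above it. The gap kept its direction at 0.47 under both percentile scalings and 0.13 under normexp. The median change of all custom probes was above 0 under each of the 4 scalings, from 0.06 to 0.52, although that of the brightest custom probes was -0.34 with the percentile over all probes. For catalogue probes it was -0.12, 0.05, -0.37 and -0.07 in the deposited values, under the percentile scalings on detected and on all probes, and under normexp.

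**Figure D3:**
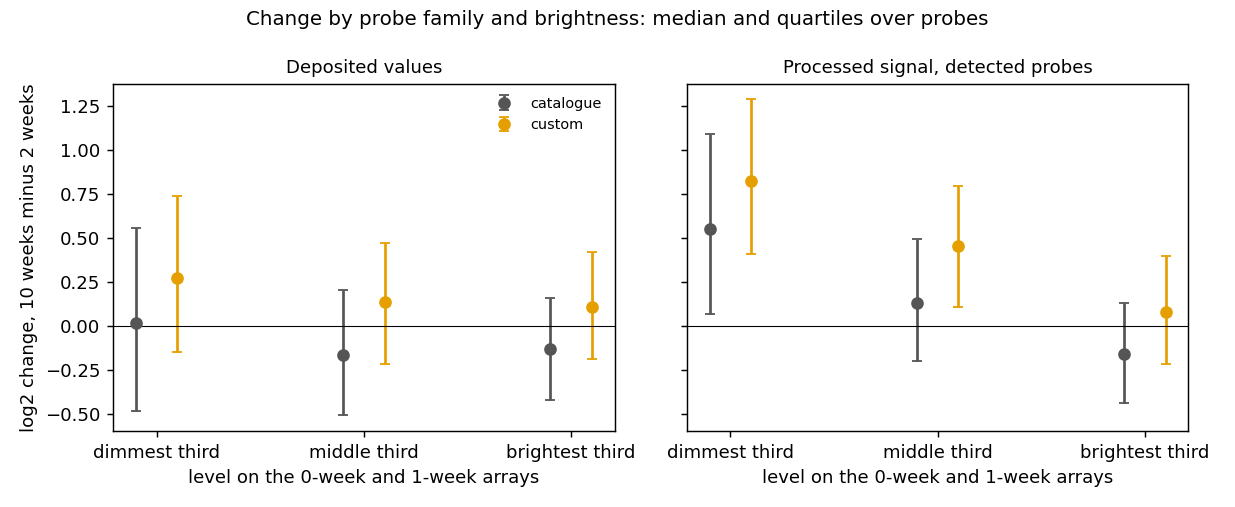
Median log2 change from 2 to 10 weeks (points) with the lower and upper quartiles over probes (bars), for catalogue and custom probes in 3 equal bins of level on the 0-week and 1-week arrays; left, deposited values, right, processed signal scaled on detected probes. Custom probes lie above catalogue probes in each bin of both panels (0.27 against 0.02 in the dimmest bin of the deposited values), while the height of both families shifts with the scaling.

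A further 15000 custom probes, with consecutive IDs, were kept apart. Their listed letters hold 2.81 CG and 1.03 GC dinucleotides per probe on average, against 0.56 and 2.43 in the other custom probes. Of 14482 with varied sequence, 80 shared 28 bases with a RefSeq start region when read backward and 2 as listed, against 1 and 357 among the other custom probes. Of this family, 2749 were tested, 309 rose and 130 fell (11.2% and 4.73%, against 10.7% and 11.8% over all tested probes). Their transcripts are not named here.

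Probes that overlap in sequence gave a measure of repeatability between probes that does not depend on names. Both probes of a pair were read on the same arrays, so this measure leaves out the spread between arrays. Among tested probes, 2460 pairs shared at least 25 bases on the same strand. In 854 pairs at least 1 probe was called, and in 795 of them (93.1%) both probes had the same sign. Both were called the same way in 452 pairs and opposite ways in 1. The median difference between the changes of a pair was 0.20 (log2). Agreement was lower in the backward-listed family, where 50 of 70 such pairs (71.4%) had the same sign.

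Letters of the probes separated rises from falls little. In catalogue probes, median GC content was 43.3% in both the 1182 rises and the 2053 falls of at least 2-fold, against 45.0% in all tested. The polyadenylation signal AATAAA, searched on the listed strand, was in 8.29% of these rises, 10.5% of the falls and 9.52% of all tested catalogue probes.

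Some probes could be tied to a gene. Probe letters were matched without mismatch, over at least 30 bases, to the region from 250 bases before to 50 bases after each RefSeq gene start (GRCm38.p6, 32851 regions). Of 842 probes that matched the region of 1 gene, 334 were tested, 33 rose and 31 fell (19.2%, against 22.4% of all tested probes). Probes for protein-coding genes gave 13 rises and 21 falls of 216 tested, and those for lncRNA genes 20 rises and 10 falls of 118. The median change of the 334 was 0.02 (log2), against 0.01 over all tested. Most of these probes (254 of 334) lay wholly before the annotated start, and others on the opposite strand, so a value below is that of a transcript from the start region and not necessarily of the named mRNA. The probes at Trp53rkb, Ctag2l1, Fbrsl1, Neurl3, Sgf29, Plce1, Stx16 and Clcn5 lie before the start used here, yet within the RefSeq bounds of their own gene. By the rule used for the leading probes, 21 genes were higher and 11 lower; the 15 largest rises and all 11 falls are plotted.

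The sequences of 6 of these probes are shown as examples. They lie outside the bounds of any other RefSeq gene, and their change passed the test under each setting that tested them. The probes at Ctag2l1, Rdh9, Cdkl4, Sgf29, Plce1 and Gm32334 met the same terms and are not shown. In the probe from Neurl3 the capitals mark TATAAA, and in that from Cdr1 they mark GTCTTCC, the complement of the seed of miR-7; the others are in lower case throughout.
Trp53rkb: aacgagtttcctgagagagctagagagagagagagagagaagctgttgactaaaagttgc
Nyx: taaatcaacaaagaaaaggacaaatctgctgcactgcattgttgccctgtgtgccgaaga
Leng9: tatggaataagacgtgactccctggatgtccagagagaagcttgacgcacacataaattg
Cdr1, antisense: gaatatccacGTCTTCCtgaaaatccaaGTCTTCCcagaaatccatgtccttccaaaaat
Neurl3: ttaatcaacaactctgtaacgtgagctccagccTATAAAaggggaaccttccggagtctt
Stx16, antisense: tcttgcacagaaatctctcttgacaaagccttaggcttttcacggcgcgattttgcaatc

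The largest rise in this set was at Trp53rkb, a relative of the p53-regulating kinase gene. Its probe lies on the gene's strand at chr2:166793541-166793600, starting 226 bases before the start. It read 6.49, 5.33 and 5.30 at 2 weeks and 7.90, 7.01 and 8.24 at 10 weeks. The groups did not overlap, and the 0-week mean of 6.27 lay within the 2-week range. The rise was 2.01 ± 0.36 (SE, log2, n = 3 arrays per group), with an adjusted p of 0.0037 by limma.

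At Ctag2l1, a cancer/testis antigen gene, the probe was on the opposite strand, before the start (chrX:74481435-74481494). It read 5.52, 4.89 and 4.73 at 2 weeks and 7.74, 6.13 and 6.97 at 10 weeks, so that every 10-week array was higher. It rose by 1.90 ± 0.35 (SE, log2, n = 3 arrays per group), with an adjusted p of 0.0048 by limma. Because it is antisense, it does not report the antigen's mRNA.

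Rdh9 encodes a retinol dehydrogenase, and its probe crosses the annotated start (chr10:127776395-127776454). The values were 5.09, 5.30 and 5.22 at 2 weeks and 6.50, 7.56 and 6.57 at 10 weeks. The 2-week arrays were tightly grouped (SD 0.10) and well below all 10-week arrays. The rise was 1.67 ± 0.26 (SE, log2, n = 3 arrays per group), with an adjusted p of 0.0019 by limma.

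The probe for Hbb-bs, an adult β-globin, begins 4 bases past the annotated start on the gene's strand, in the transcript, and its match runs over chr7:103827879-103827924. It read 5.05, 5.86 and 4.66 at 2 weeks and 6.32, 6.81 and 7.14 at 10 weeks. It rose by 1.56 ± 0.36 (SE, log2, n = 3 arrays per group) with an adjusted p of 0.012 by limma, which became 0.052 without the third 2-week array. The β-globin genes are near-identical, so signal from a paralogue may be included. It was the only tested probe for any listed erythrocyte gene, and the part of blood in the other changes was not tested.

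Of 668 genes in lists drawn up for colon cell types, inflammation, Wnt signalling and the cell cycle, 9 had a matched probe and 3 of those were tested. Besides Hbb-bs these were Prph, which encodes the neuronal filament protein peripherin, at -0.17 (adjusted p 0.46 by limma), and Tapbp antisense, at the gene of the peptide-loading protein tapasin, at -0.32 (adjusted p 0.54 by limma). The lists therefore gave no count, and the labels tumour and colitis could not be checked against markers of tissue or cell type.

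Nyx, the gene of the retinal protein nyctalopin, had a probe whose match lies at the far end of the region before the start (chrX:13460840-13460897) and whose groups were well separated. It read 5.64, 6.10 and 5.43 at 2 weeks and 6.64, 6.76 and 6.69 at 10 weeks. It rose by 0.97 ± 0.16 (SE, log2, n = 3 arrays per group), with an adjusted p of 0.0029 by limma.

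The remaining plotted rises lay between 0.79 and 1.14 (log2) and were mostly at lncRNA genes, transcripts with little known of their roles. They were Gm29539, Gm35271 and Gm39080 on the gene's strand, and Gm35813, 1700010K23Rik, Gm11335, Gm31267 and Gm39881 antisense. Among coding genes they were Fbrsl1 and Cdkl4, both antisense. Several of these probes also lie within the bounds of a second gene, which may be the one measured if it lies on the probe's strand. The strand of the second gene is not given here. The probe at Gm29539 lies within Wnt6, a Wnt ligand gene, and changed by 1.03 ± 0.33 (SE, log2, n = 3 arrays per group, adjusted p 0.045 by limma). Its value is therefore not read as that of Wnt6 mRNA. The probe at Gm11335 lies within the histone gene H4c8, at 0.93 ± 0.22 (SE, log2, n = 3 arrays per group, adjusted p 0.012 by limma). These smaller rises were the less stable ones. Leaving out 1 array ended the call at Gm29539 for each 2-week array and 10-week arrays 1 and 3, with adjusted p-values of 0.091 to 0.14. It ended those at Gm35813 and Gm39080 for 5 of the 6 arrays each, with up to 0.15 and 0.14, those at Fbrsl1 and Gm31267 for 3 arrays each, with up to 0.068 and 0.070, that at Gm39881 for 2 arrays, with up to 0.092 (and with the percentile over all probes, at a change of 0.29 and an adjusted p of 0.27), and that at Gm11335 without the third 2-week array, with 0.054. The replicate block also ended the calls at Gm29539 and Gm35813, with adjusted p-values of 0.073 and 0.061 by limma. The call at Gm29539 was lost with normexp (0.056), and that at Gm39080 with the percentile over all probes (0.059). With the 6 arrays alone the calls at Gm35813, Gm39080 and Gm39881 were lost, at 0.070, 0.053 and 0.051. With no filter on detection they were lost too, as was that at Gm29539, with up to 0.10. The calls at 1700010K23Rik, Gm35271 and Cdkl4 held throughout these fits.

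Among the falls, Leng9, a gene of the leukocyte receptor cluster region, had the largest and the most even. Its probe lies on the gene's strand before the start (chr7:4149946-4150005). It read 7.10, 7.22 and 7.13 at 2 weeks and 5.46, 5.53 and 5.61 at 10 weeks, with SDs of 0.06 and 0.07. The fall was -1.62 ± 0.18 (SE, log2, n = 3 arrays per group), with an adjusted p of 3.05e-04 by limma, and the 0-week mean of 6.58 lay between the groups.

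The next fall was opposite Cdr1, at chrX:61185640-61185699. This strand is known for Cdr1as, a circular RNA with many sites for the microRNA miR-7. RefSeq here lists that name under Cdr1os, whose bounds do not include the probe, so the probe is named by its position only. The probe holds GTCTTCC 2 times, at bases 11 and 29 of the listed strand. The motif occurs at least once in 818 of 145548 probes (0.562%) on that strand and at least 2 times in 2 of them, and in 5.32% of RefSeq start regions on either strand.

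Signal from this probe was highest at 0 weeks and lowest at 10 weeks. It read 9.69, 9.72 and 9.47 at 2 weeks and 8.36, 7.26 and 8.74 at 10 weeks, after means of 10.4 at 0 weeks and 10.1 at 1 week. The groups did not overlap, and the 10-week arrays spread more (SD 0.77 against 0.13). The fall was -1.51 ± 0.32 (SE, log2, n = 3 arrays per group), with an adjusted p of 0.0080 by limma, and -1.49 in the processed signal.

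Neurl3, which encodes a ubiquitin ligase, had a probe from just before the start used here (chr1:36273438-36273497), within the RefSeq bounds of the gene itself. TATAAA lies 39 to 34 bases before that start, and 13.6% of RefSeq start regions hold these letters on either strand. The values were 6.57, 6.60 and 6.97 at 2 weeks and 5.44, 5.20 and 6.16 at 10 weeks, without overlap. The fall was -1.11 ± 0.25 (SE, log2, n = 3 arrays per group), with an adjusted p of 0.010 by limma.

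The other falls lay between -1.15 and -0.55 (log2). They included probes at Plce1, a phospholipase C that binds Ras, and Sgf29, a subunit of the SAGA histone acetyltransferase complex, the latter antisense. The probe at Spag7 lies within Camta2, which encodes a calmodulin-binding transcription factor. The probe at Cad, the gene of the first enzymes of pyrimidine synthesis, lies within the neighbouring gene Atraid and changed by -0.65 ± 0.16 (SE, log2, n = 3 arrays per group, adjusted p 0.016 by limma). The probe at Yjefn3 lies within Ndufa13, which encodes a subunit of mitochondrial complex I, and changed by -0.59 ± 0.14 (SE, log2, n = 3 arrays per group, adjusted p 0.012 by limma). Without the third 2-week array these adjusted p-values were 0.062 and 0.052. The lncRNA genes Gm39407, Gm26973 and Gm46302 made up the rest, all antisense, the first within Trpc1 and the last within Tmem94. The call at Gm26973 was lost without the first 2-week array or the first or second 10-week array (adjusted p up to 0.058), and that at Gm46302 for 5 of the 6 arrays (up to 0.11). The replicate block and the fit with no filter on detection also ended the call at Gm46302, at adjusted p-values of 0.056 and 0.052 by limma.

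**Figure D4:**
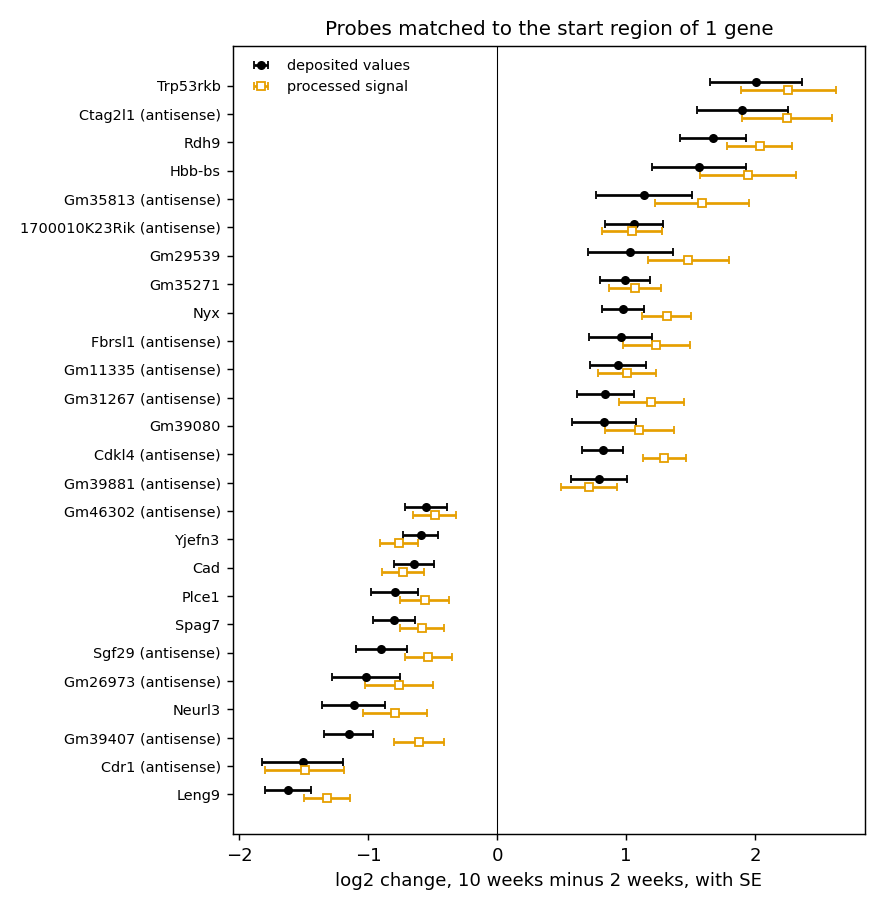
Log2 change from 2 to 10 weeks with its standard error for probes matched to the start region of 1 gene, in the deposited values (black) and the processed signal (orange). The 15 largest rises run from 0.79 to 2.01 and the 11 falls from -1.62 to -0.55 in the deposited values, and both sources have the same sign throughout.

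Stx16 encodes a syntaxin of the trans-Golgi network. An antisense probe before its start (chr2:174076899-174076958) was the only matched probe seen on all 2-week and no 10-week arrays. It read 4.34, 4.20 and 4.64 at 2 weeks and 1.61, 1.85 and 1.91 at 10 weeks, with 0-week and 1-week means of 4.37 and 4.56. Since no 10-week array was well above background, the level in the deposited values was at least 2.31-fold higher at 2 weeks. With normexp the change was -0.28 (log2). The fit, which gave an adjusted p of 2.3e-05 by limma, belongs to the measured group means of 4.39 and 1.79. Like the probes that follow, this probe entered the test only through the group where it is high.

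Of the 13 matched probes seen on all 10-week and no 2-week arrays, the brightest was at Olfr1243, an olfactory receptor gene. It lies on the gene's strand before the start (chr2:89528500-89528559). It read 3.13, 2.59 and 3.70 at 2 weeks and 5.23, 5.96 and 5.61 at 10 weeks. That was at least 3.38-fold higher at 10 weeks in the deposited values, and the change was 0.65 (log2) with normexp. The fit to the measured means of 3.14 and 5.60 gave an adjusted p of 0.035 by limma, and that call was lost when any 1 of the 6 arrays was left out, with adjusted p-values from 0.058 to 0.0996. The next brightest were at Gm32334, Xpnpep3, Thegl and Clcn5, those at Xpnpep3 and Clcn5 antisense. Their bounds in the deposited values were at least 1.27-fold to 1.68-fold. The fits to their measured means gave adjusted p-values by limma of 0.0041, 0.18, 0.069 and 0.35, respectively. Thegl passed without the third 2-week array, at an adjusted p of 0.047 by limma, and with slide as a random block, at 0.036. It also passed in the processed signal, at 0.0095 scaled on detected probes and 0.024 on all probes. Xpnpep3 passed at 0.0058 in the processed signal scaled on detected probes, but not on all probes, at 0.058.

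MicroRNA hairpins in RefSeq matched 10 probes, 6 of them tested. The probe from the hairpin of Mir196b (chr6:52230081-52230165), in the Hox gene cluster, fell by 0.58 (log2, adjusted p 0.025 by limma). In the processed signal the change was -0.18 with an adjusted p of 0.36 by limma. The probes for Mir3069, Mir719, Mir1839, Mir410 and Mir6516 did not pass the test, with changes from -0.45 to 0.13. These arrays label long RNA, so the values are of the precursor transcript and not of the mature microRNA.

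Control probes named for Gapdh and Pgk1, both glycolytic enzymes, gave a scale for housekeeping transcripts. The Gapdh control numbered 5 averaged 16.2 ± 0.080 at 2 weeks and 16.1 ± 0.11 at 10 weeks (SD, n = 3). The Pgk1 control numbered 5 averaged 11.2 ± 0.31 and 10.9 ± 0.15 (SD, n = 3), and its groups did not overlap, although 3 arrays against 3 cannot give an exact permutation p below 0.10. All 4 controls were lower at 10 weeks in the deposited values, by 0.05 to 0.33 (log2), and by 0.27 to 0.56 in the processed signal scaled on detected probes, whereas in the unscaled signal the Gapdh control numbered 5 was 0.03 higher.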

How the data were processed

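Spot intensity values were extracted with Agilent Feature Extraction 10.7.1.1, per the submitters' processing notes and the file headers; the deposited processed signal is an intensity after background subtraction and detrending, and mean and local background signals are raw intensity values. The authors also deposited log2 values per probe, taken from the values as quantile normalized (each array has a median of 2.92, and each correlates with the log2 processed signal at 0.995 or more); the method is not given in the sources used here. The well-above-background flag and other spot flags (0 or 1) were used as deposited. Flagged outlier spots and 4974 control spots of 180870 per array were left out, and a probe's value is the mean log2 value of its usable spots. No tested probe was saturated, and 6 lacked a processed signal on a compared array.

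Group means of the 12 arrays were fitted to the deposited values with limma 3.58.1 in R 4.3.3 (lmFit, eBayes), with Benjamini-Hochberg adjustment over all tested probes, and the code was tested on simulated data. The number of arrays limits the precision, and p-values measure the spread between arrays, which may be technical. Beside them, the log2 processed signal was scaled by each array's 75th percentile over 42364 probes detected on all 12 arrays. Other alternatives were the percentile over all probes, normexp with an offset of 50 and quantile normalization, other filters, the 6 arrays alone, replicate or slide blocks, and leaving out each array. Members, lists and rules were chosen with earlier results of these data known. Named probes are the largest changes with an adjusted p below 0.05 and separate groups in both sources, well above background on at least 2 of 3 arrays in each group; matching to RefSeq start regions (1 gene, at least 10 of 16 dinucleotides in the matched stretch) was chosen after values were seen, because no transcript, protein or probe table was used here. A bound, in the deposited values, compares the bright group's mean with, per dim array, the higher of the probe's own value and the lowest value among probes well above background. Levels of different probes are not compared as amounts.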

Additional observations from a re-analysis of the deposited data

How the results depend on the processing

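Slide and scan day cannot be told apart from time point, and the 10-week arrays were brighter, so small shifts of dim probes depend on the scaling. The number of changed probes stayed within 1.5 times the main 12979 except for 19800 with the processed signal scaled on all probes and 6917 without the third 2-week array. The fits without 1 array gave 6917 to 10541. At least 2-fold changes numbered 5619, and became 9306 with the processed signal scaled on detected probes, 1192 with normexp, whose offset shrinks changes of dim probes by construction, and 3169 when only probes that all 6 arrays detected were tested. The share of calls that were higher at 10 weeks, 47.5%, was 75.2% and 29.4% with the processed signal scaled on detected and on all probes, 45.3% with no filter, 41.7% over the probes detected on all 6, 51.9% with the 6 arrays alone, 48.9% with slide as a random block, and 44.1% to 50.1% without 1 array. Detection on at least 2 of 3 arrays of one group and none of the other gave 7648 probes for 10 weeks and 367 for 2 weeks. The gap between custom and catalogue probes, a comparison chosen after seeing the data, was 0.47 under both percentile scalings and 0.13 under normexp. The causes of these differences were not tested. With slide as a random block 17710 probes were called, at an estimated correlation within slides of -0.09. Each compared group lay wholly on 1 slide, so this block cannot take out a slide difference between them. With the replicate block 12297 probes were called. Same-numbered arrays deviated together at 0.11, -0.08 and 0.08, so the numbers were not taken as pairs. For the 36 named probes, 433 of 494 alternative values kept their direction and side of the threshold, 56 kept the direction but no longer passed, 5 newly passed and 0 changed sign. In all 6 fits without 1 array, 5755 probes kept their call and direction.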
